A study of Mus musculus with 18 samples.

Results

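Messenger RNAs of the insulin signalling and glucose uptake route were measured in nuclear and cytoplasmic RNA of mouse muscle fibers. The genes are the ligand Igf1, the receptors Insr and Igf1r, the adaptors Irs1 and Irs2, the kinase Akt2, the Rab regulator Tbc1d1, the glucose transporter Slc2a4, the hexokinase Hk2 and the glycogen synthase Gys1. Members were all probes that the array files name by 1 of these 10 gene symbols. No measured value entered that choice of probes, but the genes were chosen with earlier results of these data known. This gave 10 genes of 35527 distinct gene names, and 22 of the 55681 probe names on the array. Each of them had enough values to be tested in each comparison below.

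RNA of isolated fibers was hybridised to one-colour Agilent arrays, 18 in all, which fall into 6 groups of 3. The groups were cytoplasm and nuclei of the extensor digitorum longus (EDL), a mostly fast muscle, of the soleus, which holds many slow fibers, and of the tibialis anterior (TA), also mostly fast. All samples came from untreated wild-type CD1 females of 3 months. Each sample was RNA of a pool of 5 to 10 fibers, split by a mild detergent and a spin that pelleted the nuclei. Pools of EDL and soleus with the same number came from the same mice, and TA cytoplasm 1 and TA cytoplasm 2 share a mouse with each other and with the second EDL and soleus pools. TA cytoplasm 1 and 2 also share a mouse each with the TA nuclei arrays of the same number, and TA nuclei 3 shares one with the first EDL and soleus pools. The fit treats all arrays as unrelated, so p-values measure only the spread between these arrays, which may be technical. The labels name different mice for the 3 nuclear arrays of a muscle. These arrays were nevertheless much alike, and whether they are independent extractions was not settled here. Isolated fibers can keep satellite cells and other cells on their surface. Fewer cells of a type and less RNA per cell cannot be told apart in these pools.

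In muscle, insulin binds its receptor, which phosphorylates the adaptors Irs1 and Irs2. These recruit phosphoinositide 3-kinase, which leads to activation of Akt2. Akt2 phosphorylates the Rab regulators Tbc1d4 and Tbc1d1, a step that lets vesicles carrying the transporter Slc2a4 (GLUT4) reach the fiber surface. Hk2 then traps the glucose taken up as glucose 6-phosphate, and Gys1 builds it into glycogen.

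Nuclear RNA markers fitted the labels of the fractions, as the summed linear intensity of Malat1, Neat1, Xist, Kcnq1ot1 and Meg3 was 848 to 2030 in the cytoplasm arrays and 5630 to 14600 in the nuclei arrays. All 13 myofiber markers were well above background on the 3 arrays of every group. The summed level of 7 slow fiber markers was 116000 to 186000 in soleus arrays and 1950 to 18100 in EDL and TA arrays. Of the satellite cell markers, Calcr and Myf5 were not well above background on any array, nor was Pax7 on any EDL array. Well above background on all 3 arrays were 4 of 6 in soleus nuclei and also 4 of 6 in TA nuclei. The summed level of that list was 158 to 784 in EDL and soleus arrays, 180 to 6080 in TA cytoplasm and 4090 to 4980 in TA nuclei, and that of smooth muscle and pericyte markers 2120 to 3830, 1590 to 15400 and 15100 to 22100. The part of such cells in the differences between TA and the other muscles was not tested. Nuclei arrays were much alike within a group, with correlations of 0.985 to 0.992 over 35528 probes against 0.906 to 0.971 for cytoplasm arrays. Soleus cytoplasm 2 was nearly as close to soleus nuclei (mean correlation of 0.927) as to its own group (0.943). TA cytoplasm 1 (0.914) and TA cytoplasm 3 (0.938) were less like their own group still, and TA cytoplasm 1 had the lowest array weight of the 18 (0.0989). Cytoplasm and nuclei of EDL and soleus were hybridised on separate slides, so fraction and slide cannot be told apart in these muscles. TA cytoplasm 2 shared a slide with the 3 TA nuclei arrays, and TA cytoplasm 1 shared one with the cytoplasm arrays of EDL and soleus.

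Whether transcripts of the route differed between nuclei and cytoplasm was asked first over the 3 muscles. Of the 22 probes 16 were higher and 3 lower in nuclei, and 3 did not pass the test (adjusted p under 0.05, limma). With each gene taken by its probe with the highest mean, 7 of the 10 genes were higher and 1 lower. The shares among genes with a curated messenger RNA accession, taken the same way, were 39.4% and 29.2%. Without scaling between arrays 19 of the 22 probes were higher and 0 lower, beside 20269 higher and 8633 lower of all probes. With quantile normalization 31.2% of all 40541 probes tested were higher and 38.6% lower. The median difference of the members was 0.57 (log2, nuclei minus cytoplasm) against -0.08 for all probes and 0.19 for genes with a curated messenger RNA accession. A scaling by the 75th percentile moved the median of all probes to -0.30, and no scaling moved it to 0.42, so differences are best read relative to these medians. The 3 nuclear arrays of a muscle were also averaged as 1 sample, which is then taken to vary like the cytoplasm arrays. Fewer member probes then passed, most of them higher in nuclei. Of all probes called in that setting 36.1% were higher.

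**Figure D1:**
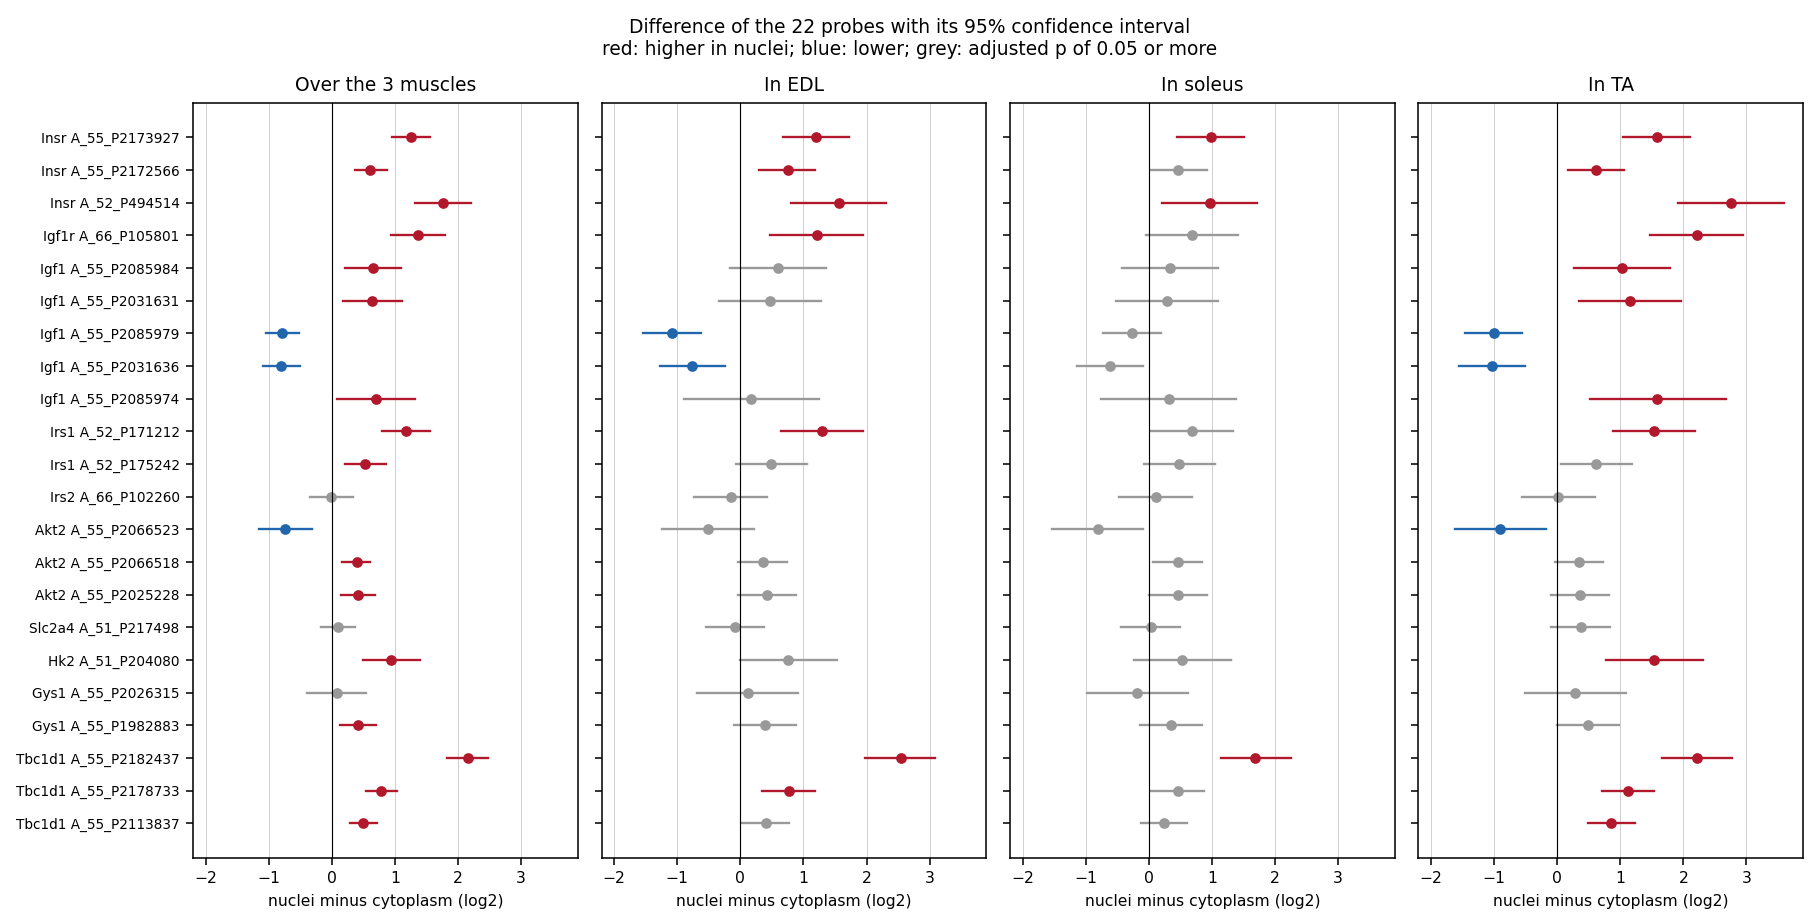
Nuclei minus cytoplasm (log2) for the 22 probes, over the 3 muscles and in each muscle. Points are differences of group means and bars their 95% confidence intervals. Red points were higher and blue points lower in nuclei, and grey points did not pass the test. Over the 3 muscles 16 probes are red and 3 blue, the latter 2 probes of Igf1 and 1 of Akt2.

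In EDL 7 probes were higher and 2 lower in nuclei, beside 20% and 26.5% of all probes. Of the soleus differences 3 were higher and 0 lower, beside 18.7% and 21.7% of all probes, and 10 had an unadjusted p under 0.05. That count of 3 was 6 without soleus cytoplasm 2, 8 without TA cytoplasm 1 and 6 without TA cytoplasm 3, although the TA arrays enter it through the shared estimate of the spread only. In TA 12 were higher and 3 lower, beside 19.2% and 33.5% of all probes. Significance Analysis of Microarrays, the test of the study's methods, gave 6 calls among the members for EDL (35.7% of all probes), 3 for soleus (34%) and 2 for TA (12.2%). With the nuclear arrays averaged fewer probes passed in each muscle, and no share of all probes was taken there. Higher in nuclei in each of the 3 muscles in the fit of all arrays were 3 probes, 2 of Insr and 1 of Tbc1d1, while 0 were lower in each muscle. In no single muscle did 7 probes pass, among them the probes of Irs2 and Slc2a4 and both probes of Gys1. No share of all probes called in every muscle or in none was taken, so these joint counts cannot be judged against the array. The test of unequal fraction differences between muscles (moderated F) called 0 of the 22 probes, with 3 at an unadjusted p under 0.05, against 1.55% of all probes called.

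Insr encodes the insulin receptor, which also binds insulin-like growth factors more weakly. Its 3 probes were all higher in nuclei. The probe A_55_P2173927 begins at base 4745 of the transcript, A_55_P2172566 at base 6193 and A_52_P494514 at base 8550. The first gave log2 intensities of 6.68, 5.87 and 6.05 in EDL cytoplasm and 7.56, 7.29 and 7.36 in EDL nuclei. In soleus it gave 7.15, 7.52 and 6.52 in cytoplasm and 8.07, 8.09 and 7.98 in nuclei. In TA it gave 5.47, 5.52 and 5.93 in cytoplasm and 7.17, 7.24 and 7.24 in nuclei. The fractions did not overlap in any of the 3 muscles for this probe. Its difference over the 3 muscles was 1.25 ± 0.14 (SE, adjusted p = 1.83e-06), a 2.39-fold higher level in nuclei. A_55_P2172566 differed by 0.61 ± 0.12 (adjusted p = 0.000336). This call was lost with the nuclear arrays averaged (adjusted p = 0.0683).

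The probe of Insr nearest the 3′ end, A_52_P494514, also passed over the 3 muscles (adjusted p = 4.31e-06), with no exact size because of TA. In TA cytoplasm it was not well above background on any of the 3 arrays and had a value on 2 of them, 2.38 and 3.70. In TA nuclei it read 5.68, 5.82 and 5.89, at least 5.32-fold higher than the floor of the TA cytoplasm arrays (adjusted p = 7.05e-05). Here the floor of an array was the lowest intensity among its probes well above background, or the probe's own intensity where that was higher. In EDL its difference was 1.56 ± 0.35 and in soleus 0.97 ± 0.35, the latter beside 0.98 ± 0.25 for A_55_P2173927. The soleus call (adjusted p = 0.0413) was lost when any of 11 single arrays was left out, with the smallest difference, 0.70, without soleus cytoplasm 3.

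Igf1r encodes the receptor of insulin-like growth factor 1 and was measured by 1 probe, A_66_P105801. In cytoplasm it was a dim probe, well above background on 1 of 3 arrays in EDL, 3 of 3 in soleus and 1 of 3 in TA, and on all 9 nuclei arrays. Its log2 intensity was 3.63, 3.97 and 5.02 in TA cytoplasm and 6.50, 6.42 and 6.33 in TA nuclei. EDL cytoplasm read 4.37, 4.59 and 5.65 and EDL nuclei 6.17, 6.14 and 5.94. Nuclei lay above cytoplasm in every muscle without overlap, by 2.21 ± 0.35 in TA (adjusted p = 0.000113), 1.21 ± 0.35 in EDL (adjusted p = 0.00987) and 0.69 ± 0.35 in soleus (adjusted p = 0.126). With normexp background correction, which compresses dim values, the difference over the 3 muscles was 0.49 in place of 1.37 and still passed the test.

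Igf1 encodes insulin-like growth factor 1, a growth signal that muscle makes for itself and that the liver secretes. Its 5 probes gave both directions. A_55_P2085984 and A_55_P2031631, which share 40 bases and begin at bases 889 and 909 of the transcript NM_010512, were higher in nuclei by 0.65 ± 0.21 and 0.64 ± 0.22 (adjusted p = 0.0109 and 0.0171). A_55_P2031636, from base 3252 of the same transcript, was lower by 0.80 (difference -0.80 ± 0.14, adjusted p = 0.000128). A_55_P2085974, from base 6909, was higher by 0.70 ± 0.29 (adjusted p = 0.0438). A_55_P2085974 rested mostly on TA, with group means of 3.71 in cytoplasm, well above background on 2 of 3 arrays, and 5.30 in nuclei. Its means in cytoplasm and nuclei were 6.29 and 6.46 in EDL and 6.95 and 7.27 in soleus. Over the 3 muscles 1 stretch that read lower in nuclei thus lay between 2 that read higher, the last mainly by TA. The lower probe and 1 higher probe are shown by 30 bases each, to let the opposite readings be traced to their sequence. Both are of mm9, plus strand, bases 16 to 45 of each probe, with no part in capitals.
Igf1 A_55_P2031631, probe at chr10:87393581-87393640: caaagatgggcatttcccccaatgaaatat
Igf1 A_55_P2031636, probe at chr10:87395924-87395983: ataagaggtcagctgaccatccacctgctt

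The lower Igf1 probe read 8.46, 8.44 and 8.47 in EDL cytoplasm and 7.70, 7.70 and 7.70 in EDL nuclei. In soleus it read 8.95, 9.12 and 8.39 in cytoplasm and 8.28, 8.14 and 8.21 in nuclei, and in TA 8.59, 8.13 and 7.47 against 7.20, 7.01 and 6.89. Cytoplasm lay above nuclei without overlap in each muscle. A_55_P2031631 read 7.44, 7.32 and 7.04 in EDL cytoplasm and 7.78, 7.67 and 7.74 in EDL nuclei. In TA it read 6.39, 5.74 and 4.83 in cytoplasm and 6.83, 6.88 and 6.72 in nuclei. Nuclei lay above cytoplasm without overlap in both muscles and passed the test in TA (adjusted p = 0.0184), not in EDL (adjusted p = 0.331). In soleus 8.33, 8.70 and 7.01 in cytoplasm spanned the nuclear 8.36, 8.23 and 8.33. The gap between the log2 values of these probes (A_55_P2031636 minus A_55_P2031631) was 0.42 to 2.65 in the 9 cytoplasm arrays and -0.12 to 0.37 in the 9 nuclei arrays, without overlap. That gap was not tested, and it shows unequal change of both probes only.

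The fifth Igf1 probe, A_55_P2085979, is named by the transcript variant NM_184052 and lies 15105 bases before the next probe of the gene on chromosome 10. It was lower in nuclei by 0.79 (difference -0.79 ± 0.12, adjusted p = 4.18e-05). EDL cytoplasm read 8.24, 8.42 and 8.77 and EDL nuclei 7.47, 7.46 and 7.24. TA cytoplasm read 8.84, 8.85 and 8.16 and TA nuclei 7.49, 7.63 and 7.74. The fractions were separate in EDL and TA and overlapped in soleus, where the difference was -0.27 ± 0.21. Without scaling between arrays both lower Igf1 probes lost their calls, with differences of -0.06 for A_55_P2085979 and -0.09 for A_55_P2031636. The 3 higher probes lost theirs with the nuclear arrays averaged (adjusted p = 0.194, 0.225 and 0.295), and A_55_P2085974 did so in 17 of 27 alternatives. Fibroblast and fibro-adipogenic markers, cells known to express Igf1, had a summed level of 20000 to 46300 in cytoplasm arrays and 39200 to 74300 in nuclei arrays, with 8 of 8 markers well above background on all nuclei arrays and Dpt on none of TA cytoplasm. Macrophage markers summed to 36300 to 41600 in cytoplasm and 30100 to 41900 in nuclei, with 7 to 8 of 9 markers well above background on all arrays of a group, and Mrc1 on none of EDL cytoplasm or TA. The part of these cells in the Igf1 values was not tested.

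Irs1 and Irs2 encode the adaptors that carry the signal from the receptors to phosphoinositide 3-kinase. Both Irs1 probes were higher in nuclei, A_52_P171212 by 1.17 ± 0.18 (adjusted p = 2.62e-05) and A_52_P175242 by 0.53 ± 0.15 (adjusted p = 0.00587), the latter lost with the nuclear arrays averaged (adjusted p = 0.173). The former read 7.13, 6.40 and 6.67 in EDL cytoplasm and 8.01, 8.10 and 8.01 in EDL nuclei. In TA it read 6.29, 5.53 and 5.73 in cytoplasm and 7.34, 7.43 and 7.39 in nuclei. Nuclei were higher without overlap in both. In soleus the cytoplasm read 7.13, 8.18 and 6.70 and the nuclei 8.05, 7.98 and 8.04, and the high value was that of soleus cytoplasm 2. Without that array the soleus difference was 1.10 (adjusted p = 0.00199) in place of 0.68 (adjusted p = 0.086).

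Irs2 did not differ measurably between fractions. Its probe A_66_P102260 had a difference of -0.01 over the 3 muscles, with a 95% confidence interval of -0.34 to 0.33 (adjusted p = 0.973). Without scaling between arrays it was 0.77 (adjusted p = 0.000339). EDL cytoplasm read 10.68, 10.64 and 11.55 and EDL nuclei 10.87, 10.87 and 10.68. The fractions overlapped in all 3 muscles. The sequence is given as that of a member with no called difference (chr8:11004490-11004549, mm9, minus strand, no part in capitals).
Irs2 A_66_P102260: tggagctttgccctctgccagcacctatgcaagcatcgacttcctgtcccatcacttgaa

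Akt2 encodes the Akt kinase that insulin uses in muscle and fat. Its probes also gave both directions. A_55_P2066523, which begins at base 1052 of the transcript, was lower in nuclei by 0.74 (difference -0.74 ± 0.20, adjusted p = 0.00332). A_55_P2066518 and A_55_P2025228 begin at bases 3095 and 3102, share 53 bases, and were higher by 0.39 ± 0.10 and 0.42 ± 0.13 (adjusted p = 0.00399 and 0.00796). The sequence of the first is shown whole and that of the second by its last 30 bases, with AATAAA, the usual signal for cleavage and polyadenylation, in capitals. Of all probes of 60 bases on the array 10.1% hold these letters on the printed strand (the other strand was not searched), and of the 22 member probes only these 2 of Akt2 do. Both lie on the plus strand of mm9.
Akt2 A_55_P2066523, chr7:28418226-28418285: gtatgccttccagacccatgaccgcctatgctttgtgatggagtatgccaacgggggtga
Akt2 A_55_P2066518, probe at chr7:28424405-28424464: tacggtacaagcAATAAAgacactcatttc

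The probe of Akt2 nearer the 5′ end read 9.95, 9.64 and 9.43 in EDL cytoplasm and 9.11, 9.41 and 8.96 in EDL nuclei. In soleus it read 9.76, 9.73 and 9.30 against 8.57, 9.02 and 8.78, and in TA 10.51, 9.13 and 8.72 against 8.47, 8.52 and 8.66. Cytoplasm was higher without overlap in each muscle, although only TA passed the test (adjusted p = 0.0355). The high TA value was that of TA cytoplasm 1, and without that array the TA difference was -0.37 (adjusted p = 0.178) in place of -0.90. The TA call was also lost without any 1 of the TA nuclei arrays (adjusted p = 0.0562 to 0.0862). The 3′ probe A_55_P2066518 read 12.23, 11.99 and 12.13 in EDL cytoplasm and 12.49, 12.53 and 12.41 in EDL nuclei. In soleus it read 11.77, 12.45 and 11.93 against 12.50, 12.51 and 12.50, and in TA 12.00, 12.05 and 11.68 against 12.28, 12.26 and 12.22. Here nuclei lay above cytoplasm without overlap in each muscle, yet no muscle alone passed. The gap of both probes (3′ minus 5′) was 1.49 to 2.95 in the 9 cytoplasm arrays and 3.12 to 3.94 in the 9 nuclei arrays, without overlap. The gaps printed in this report, of Akt2, Igf1 and Tbc1d1, are of pairs that did not overlap. Those of Insr, Irs1 and Gys1 overlapped between fractions, as did other pairs of Igf1 and Tbc1d1. No share over probe pairs of all genes was taken. All 3 Akt2 calls were lost with the nuclear arrays averaged (adjusted p = 0.115, 0.197 and 0.21), and without scaling the difference of the 5′ probe was 0.03.

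**Figure D2:**
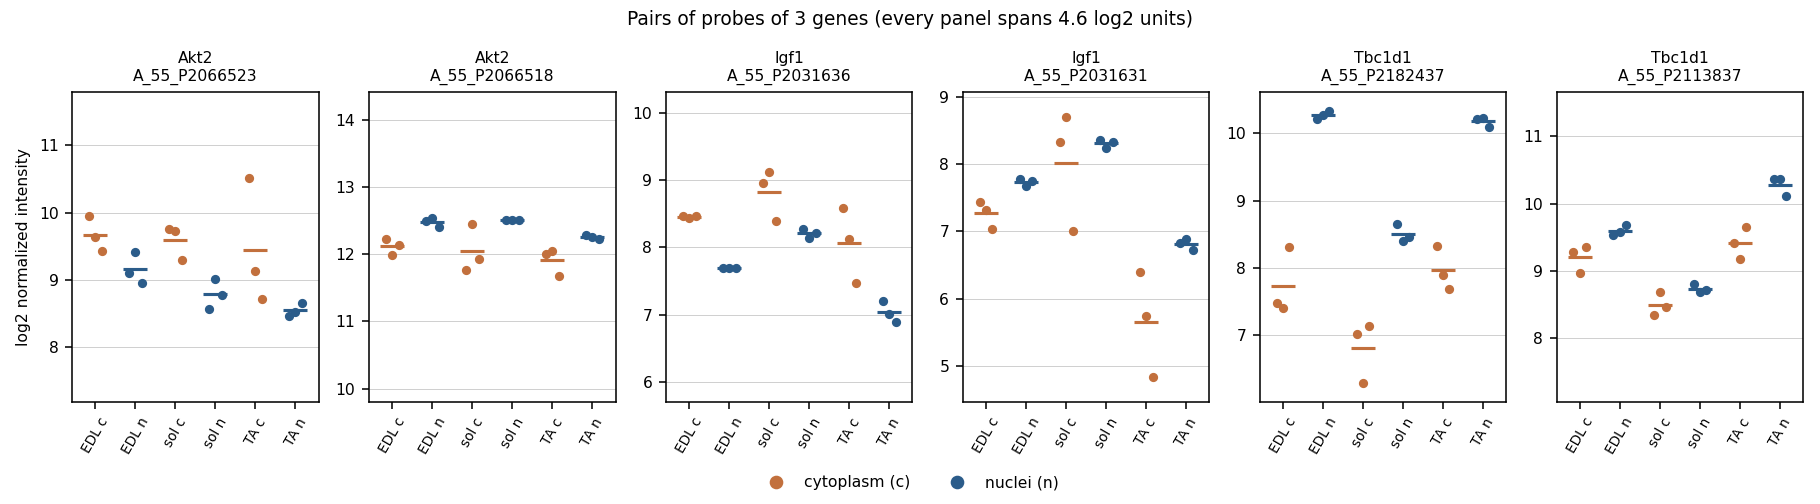
Log2 normalized intensity of pairs of probes of Akt2, Igf1 and Tbc1d1 in the 18 arrays. Points are arrays, lines group means, orange is cytoplasm (c) and blue nuclei (n). For Akt2 and Igf1 the left probe of a pair was lower and the right one higher in nuclei, and for Tbc1d1 the difference was 2.15 for the left and 0.50 for the right probe.

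Tbc1d1, the Rab regulator that both Akt and AMP-activated kinase phosphorylate, had 3 probes, all higher in nuclei and unequal in size. A_55_P2182437 is named by the cDNA record AK080526 and lies 171163 bases before the next probe of the gene on the plus strand of chromosome 5. The sources used here do not settle whether it reads a mature transcript of the gene or an intron. Its log2 intensity was 7.48, 7.41 and 8.31 in EDL cytoplasm and 10.21, 10.27 and 10.33 in EDL nuclei. In soleus it was 7.02, 6.29 and 7.13 in cytoplasm and 8.66, 8.40 and 8.46 in nuclei. In TA it was 8.33, 7.90 and 7.68 in cytoplasm and 10.22, 10.23 and 10.10 in nuclei. Nuclei exceeded cytoplasm in each muscle without overlap, by 2.15 ± 0.15 over the 3 muscles (adjusted p = 1.35e-08), a 4.43-fold higher level. The call held in all 27 alternatives that gave a value, with differences of 1.79 to 2.89.

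The probes of Tbc1d1 within its NM_019636 transcript had smaller differences. A_55_P2178733, from base 3603, was higher by 0.78 ± 0.11 (adjusted p = 1.86e-05), and A_55_P2113837, from base 5288, by 0.50 ± 0.10 (adjusted p = 0.000401). The latter lost its call with the nuclear arrays averaged (adjusted p = 0.0895). Its gap to A_55_P2182437 was 1.04 to 2.40 in the 9 cytoplasm arrays and -0.69 to 0.29 in the 9 nuclei arrays, without overlap. Bases of the far probe and of A_55_P2178733 are given to show which parts of the locus were read (mm9, plus strand, no part in capitals), the former by bases 16 to 45.
Tbc1d1 A_55_P2182437, probe at chr5:64565429-64565488: agtgtctctcgagttgcaatgtgtatgtga
Tbc1d1 A_55_P2178733, chr5:64736592-64736651: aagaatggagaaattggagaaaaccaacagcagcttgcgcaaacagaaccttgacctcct

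Slc2a4 encodes GLUT4, the transporter that insulin moves to the fiber surface. Its probe A_51_P217498 is spotted 10 times on each array, and the spots of an array varied by an SD of 0.0346 to 0.0731. It read 12.50, 12.39 and 12.80 in EDL cytoplasm and 12.43, 12.53 and 12.46 in EDL nuclei. In soleus it read 12.54, 13.16 and 12.51 against 12.76, 12.74 and 12.79, and in TA 12.04, 11.32 and 12.01 against 12.19, 12.22 and 12.07. The fractions overlapped in EDL and soleus and not in TA. The difference over the 3 muscles was 0.10 ± 0.13 (95% confidence interval -0.17 to 0.37, adjusted p = 0.484). It passed with array weights, which give the tighter nuclei arrays more say, at 0.28 (adjusted p = 0.0102), and without scaling at 0.70 (adjusted p = 0.000169). In TA it was 0.37 ± 0.22 (adjusted p = 0.172), and with slide as a block it was 0.84 (adjusted p = 0.0152). That value rests on TA cytoplasm 2 alone, which is assumed to vary like the other groups. The 30 bases of the probe from base 16 are shown, as the member that the route exists to move (chr11:69756073-69756132, mm9, minus strand, no part in capitals).
Slc2a4 A_51_P217498: tagggagcagaaacccaagggctgctgtat

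Hk2, the hexokinase bound to muscle mitochondria, was higher in nuclei by 0.94 ± 0.21 over the 3 muscles (adjusted p = 0.000878). TA cytoplasm read 7.84, 6.88 and 8.06 and TA nuclei 9.18, 9.14 and 9.08, a difference of 1.54 ± 0.36 (adjusted p = 0.00235). EDL cytoplasm read 8.51, 7.46 and 9.24 and overlapped the EDL nuclei at 9.25, 9.04 and 9.20. With the nuclear arrays averaged the call over the 3 muscles was lost (adjusted p = 0.0733). Gys1, the glycogen synthase of muscle, had 1 probe with a higher level in nuclei, A_55_P1982883, by 0.41 ± 0.13 (adjusted p = 0.0127). Its other probe, A_55_P2026315, had a difference of 0.08 ± 0.22 (adjusted p = 0.768). In no muscle alone did either pass. The higher one lost its call with the nuclear arrays averaged (adjusted p = 0.235).

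**Figure D3:**
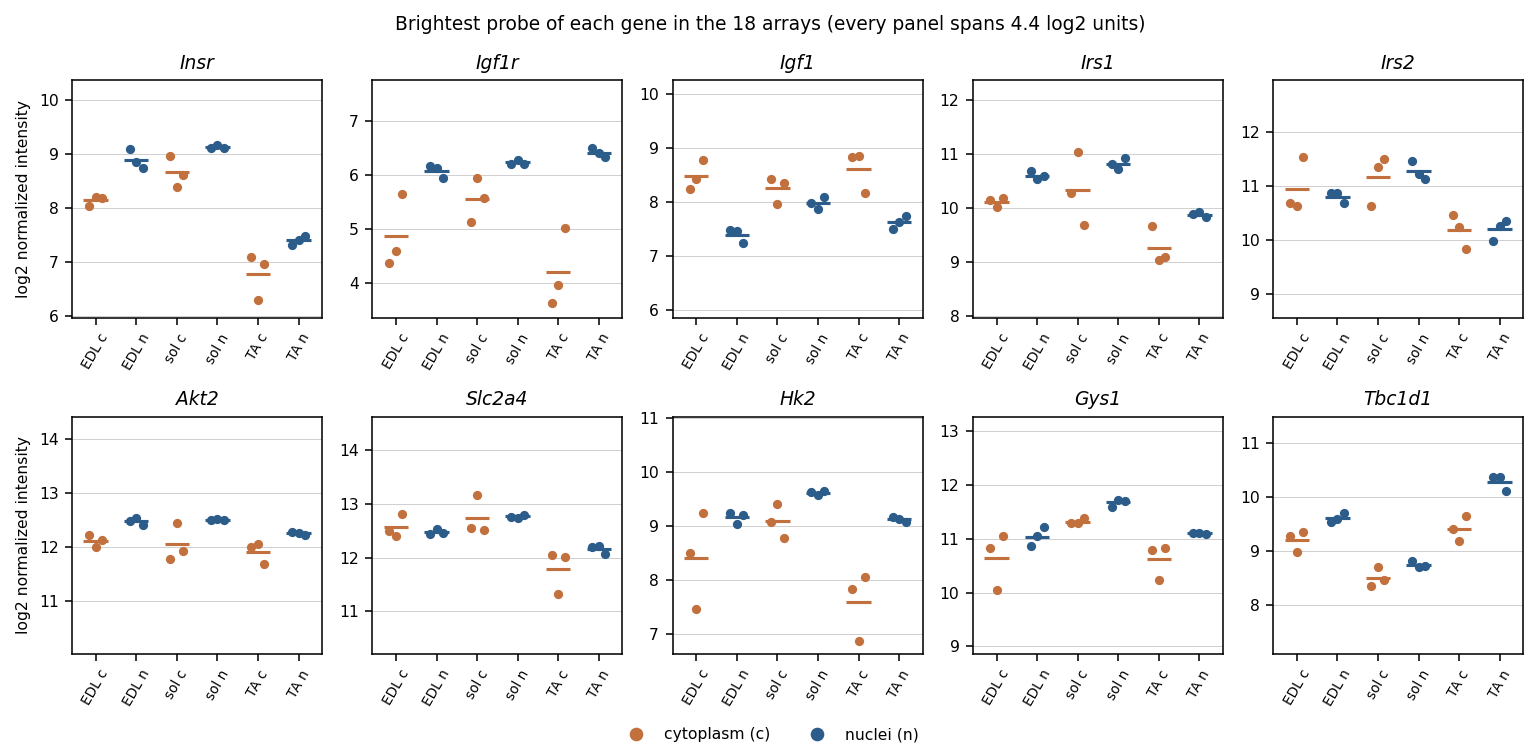
Log2 normalized intensity of the probe with the highest mean for each gene in the 18 arrays. Points are arrays and lines group means, with cytoplasm (c) in orange and nuclei (n) in blue for EDL, soleus (sol) and TA. Nuclei arrays lie closer together than cytoplasm arrays, with a median SD of the 22 probes of 0.07 to 0.08 in nuclei and 0.26 to 0.40 in cytoplasm.

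Whether the muscles differed was asked in each fraction apart. Between TA and soleus cytoplasm 15 of the 22 probes were lower and 2 higher in TA, beside 12.8% and 15.8% of all probes. In nuclei 10 were lower and 3 higher, beside 11.9% and 7.75%. The median difference of the members was -1.03 in cytoplasm and -0.66 in nuclei, and that of all probes 0.20 and -0.10. Lower in TA in both fractions were all 3 probes of Insr, 4 of the 5 probes of Igf1, 1 of Irs1 and the probe of Irs2. The share of all probes lower in both fractions was not taken. The probes higher in TA were all of Tbc1d1, 2 of its 3 in cytoplasm and all 3 in nuclei. The probe A_55_P2178733 did not pass in cytoplasm (0.29, adjusted p = 0.274). TA nuclei were on another slide than soleus and EDL nuclei, so muscle and slide cannot be told apart for TA in nuclei, against either muscle. With slide as a block, which compares TA cytoplasm 1 alone with the soleus arrays of its slide and takes it to vary like the other groups, 10 member probes passed in cytoplasm, 7 lower and 3 higher. In nuclei the count was 8 without TA nuclei 1. With the nuclear arrays averaged, which sets 1 value against 1, no member probe passed between muscles in nuclei, and in cytoplasm 6 passed between TA and soleus and 0 between TA and EDL.

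The insulin receptor was lower in TA than in soleus by all its probes. Its probe A_55_P2172566 read 8.96, 8.39 and 8.61 in soleus cytoplasm, 8.04, 8.20 and 8.18 in EDL cytoplasm and 7.09, 6.29 and 6.95 in TA cytoplasm. In nuclei it read 9.11, 9.16 and 9.11 in soleus, 9.09, 8.85 and 8.73 in EDL and 7.30, 7.41 and 7.47 in TA. For this probe TA lay below both other muscles in either fraction without overlap. TA minus soleus was -1.88 ± 0.21 in cytoplasm (adjusted p = 4.34e-05) and -1.73 ± 0.21 in nuclei (adjusted p = 8.49e-05). TA minus EDL was -1.37 ± 0.21 (adjusted p = 0.00186) and -1.50 ± 0.21 (adjusted p = 0.000593). With the nuclear arrays averaged the TA minus EDL call in cytoplasm was lost. Both calls in nuclei were lost too, but that setting compares 1 value with 1 there, so this decides little. Soleus and EDL, neighbours in this order, did not pass the test in cytoplasm (0.51 ± 0.21, adjusted p = 0.278) or nuclei (0.23 ± 0.21, adjusted p = 0.883). A_52_P494514 was at least 9.92-fold higher in soleus cytoplasm than the floor of TA cytoplasm (adjusted p = 4.62e-05). Between TA and EDL this probe passed in cytoplasm (adjusted p = 0.00537) and not in nuclei (difference -0.99). A_55_P2173927 passed in neither fraction between TA and EDL. Its difference was -0.56 in cytoplasm (adjusted p = 0.156), and its nuclear means were 7.22 in TA and 7.40 in EDL.

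Igf1 was lower in TA than in soleus by the probe A_55_P2031631, by 2.36 in cytoplasm (difference -2.36 ± 0.38, adjusted p = 0.000713) and 1.50 in nuclei (difference -1.50 ± 0.38, adjusted p = 0.0134). The variant probe A_55_P2085979 did not share this, at 0.36 ± 0.21 in cytoplasm and -0.37 ± 0.21 in nuclei, neither past the test. The fibroblast and fibro-adipogenic list summed to 33700 to 46300 in soleus cytoplasm and 20000 to 30800 in TA cytoplasm, and to 64700 to 67000 and 39200 to 42700 in nuclei. Its part in the Igf1 difference was not tested. Slc2a4 was lower in TA than in soleus cytoplasm by 0.95 (difference -0.95 ± 0.22, adjusted p = 0.00619). In nuclei the difference was -0.61 ± 0.22 (adjusted p = 0.0626). The order of its group means was soleus nuclei at 12.76, soleus cytoplasm at 12.74, EDL cytoplasm at 12.56, EDL nuclei at 12.48, TA nuclei at 12.16 and TA cytoplasm at 11.79. None of the 5 pairs of neighbours in this order passed the test. With the slide block the TA minus soleus difference of Slc2a4 in cytoplasm was -0.70 (adjusted p = 0.0693).

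Hk2, Irs1, Irs2 and Gys1 were also lower in TA than in soleus cytoplasm, Hk2 by 1.50 (difference -1.50 ± 0.36, adjusted p = 0.00793). Of these, the probe of Irs2 and 1 of Irs1 passed in nuclei too, Irs2 with a difference of -1.07 ± 0.27 (adjusted p = 0.0132). Each of them lost its call in cytoplasm with the slide block. Igf1r was also lower in TA than in soleus cytoplasm (difference -1.35, adjusted p = 0.011), and its difference with the slide block was -1.92. Its probe was well above background on 1 of 3 TA cytoplasm arrays, and the call was lost without TA cytoplasm 2 (adjusted p = 0.051). The Akt2 probe A_55_P2066523 had a difference of -0.14 ± 0.34 between TA and soleus cytoplasm, which was 0.92 with the slide block, where TA cytoplasm 1 stands alone for TA, and -0.67 without TA cytoplasm 1.

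Tbc1d1 ran the other way. In nuclei its probe A_55_P2113837 read 8.81, 8.69 and 8.71 in soleus, 9.53, 9.58 and 9.69 in EDL and 10.36, 10.36 and 10.11 in TA. The 3 muscles did not overlap. TA minus soleus was 1.54 ± 0.17 (adjusted p = 5.11e-05), TA minus EDL 0.67 ± 0.17 (adjusted p = 0.0177) and soleus minus EDL -0.87 ± 0.17 (adjusted p = 0.0177). All 3 calls were lost with the nuclear arrays averaged. That setting compares 1 value with 1 here, so the loss decides little. The far probe A_55_P2182437 was 1.76 lower in soleus than in EDL nuclei (difference -1.76 ± 0.26, adjusted p = 0.0017), a call also lost with that averaging. Between TA and EDL its difference was -0.09 ± 0.26 (adjusted p = 0.848). In cytoplasm TA exceeded soleus by 1.15 ± 0.26 for the far probe (adjusted p = 0.0056) and by 0.91 ± 0.17 for A_55_P2113837 (adjusted p = 0.00211), and both were lost with the averaging (adjusted p = 0.0855 and 0.075).

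Between soleus and EDL, which shared mice and slides, 0 of the 22 probes passed in cytoplasm, beside 0.853% of all probes higher and 0.57% lower in soleus, and 7 had an unadjusted p under 0.05. In nuclei 0 were higher and 2 lower, both of Tbc1d1, beside 0.978% and 0.579% of all probes. With a replicate block for the shared mice only the far probe passed, and A_55_P2113837 had an adjusted p of 0.0732. The count in nuclei fell to 1 without any 1 of the 3 EDL or 3 soleus nuclei arrays. In cytoplasm it was 1 without EDL cytoplasm 1, 3 without soleus cytoplasm 3, and 2 without TA cytoplasm 1 or 3. Between TA and EDL 7 probes were lower and 0 higher in TA cytoplasm, beside 7.33% and 5.12% of all probes. They were 2 of Insr, 3 of Igf1, 1 of Irs1 and that of Slc2a4. The count was 3 without EDL cytoplasm 1, TA cytoplasm 2 or TA cytoplasm 3, 11 without TA cytoplasm 1, and 2 with the slide block. With the replicate block Irs1 (adjusted p = 0.0705) and Slc2a4 (adjusted p = 0.0501) no longer passed. In nuclei 2 were lower and 1 higher, beside 9.81% and 7.59%, namely 1 probe each of Insr, Akt2 and Tbc1d1. That count fell to 1 without any 1 of EDL nuclei 1 or 2 or TA nuclei 1 or 2, and rose to 6 without soleus cytoplasm 2, soleus cytoplasm 3 or TA cytoplasm 3 and to 8 without TA cytoplasm 1.

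**Figure D4:**
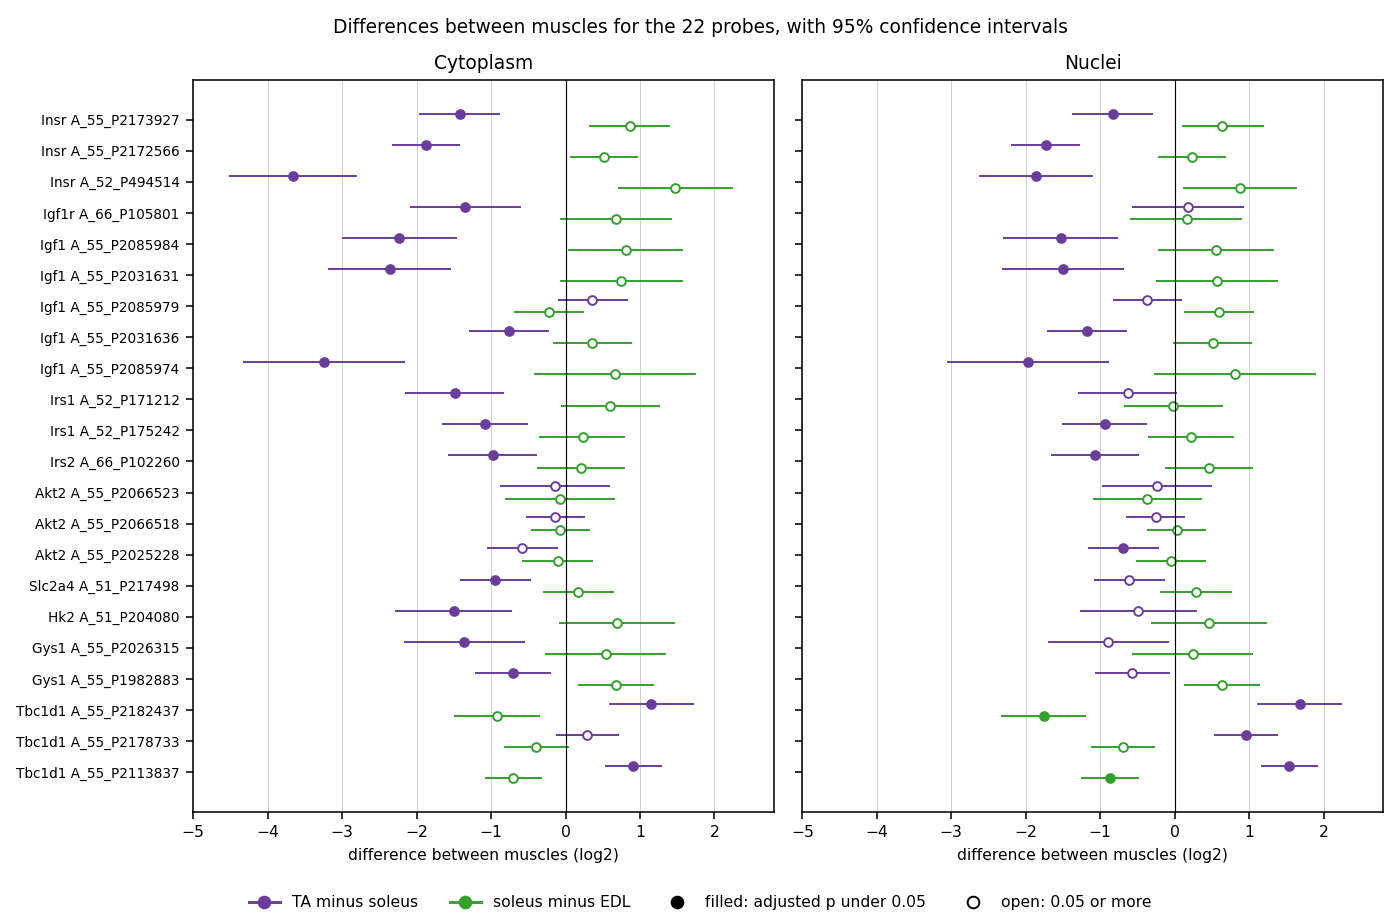
TA minus soleus (purple) and soleus minus EDL (green) in log2 for the 22 probes, in cytoplasm (left) and nuclei (right). Points are differences of group means, bars their 95% confidence intervals, and filled points passed the test. In TA minus soleus 15 probes in cytoplasm and 10 in nuclei are filled below 0, and the filled points above 0 are all of Tbc1d1.

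The rest of the route was read from 7 lists of other genes, each gene by its probe with the highest mean. Of 141 listed names 134 had a probe and 126 were tested. Higher in nuclei over the 3 muscles were 74 genes (58.7%) and lower 20 (15.9%), beside 39.4% and 29.2% of the 15123 genes with a curated messenger RNA accession tested in the same way. Without scaling between arrays 101 were higher and 8 lower, when 70.1% of all probes called were higher. The median difference after quantile normalization was 0.54. With the nuclear arrays averaged fewer of these genes passed, most of them higher, when 36.1% of all probes called were higher.

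Upstream regulators and adaptors had 18 higher and 8 lower genes of 30 tested. Socs3, which blocks signalling from cytokine and insulin receptors, was higher by 2.40 ± 0.29 (adjusted p = 3.25e-06). Sh2b2, an adaptor bound by the insulin receptor, was lower by 1.21 (difference -1.21 ± 0.28, adjusted p = 0.00125), which was -0.47 (adjusted p = 0.116) without scaling. In the phosphoinositide 3-kinase and Akt branch 9 of 19 were higher and 4 lower. Phlpp1, a phosphatase that removes phosphate from Akt, was higher by 1.99 ± 0.22 (adjusted p = 1.34e-06), with 4 of 9 cytoplasm arrays well above background. Prkcz, an atypical protein kinase C, was lower by 1.21 (difference -1.21 ± 0.12, adjusted p = 6.17e-07).

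In the mTOR and glycogen synthase kinase branch 10 of 16 were higher and 1 lower. Tsc1, which restrains mTOR complex 1, was higher by 2.27 ± 0.15 (adjusted p = 8.78e-09), and Mapkap1, a part of mTOR complex 2, had a difference of -0.31 ± 0.11 (adjusted p = 0.0201), which was 0.06 without scaling. Among genes of GLUT4 vesicle traffic 14 of 27 were higher and 1 lower. Tbc1d4, the close relative of Tbc1d1 and target of Akt2, was higher by 1.47 ± 0.15 (adjusted p = 6.39e-07). The sorting receptor Sort1 had a difference of -0.80 ± 0.12 (adjusted p = 2.52e-05), which was -0.06 without scaling.

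Of the other hexose transporters and hexokinases 7 were tested, 3 of them higher and 2 lower, with Slc2a8 at 0.71 ± 0.16 (adjusted p = 0.000979, and 0.0819 with the nuclear arrays averaged) and Hk3 at -1.07 ± 0.16 (adjusted p = 1.99e-05). Glycogen synthesis had 9 of 12 higher and 1 lower. Pgm1, a phosphoglucomutase, was higher by 1.42 ± 0.22 (adjusted p = 3.99e-05) but was well above background on 2 of 9 cytoplasm arrays. The glycogen targeting subunit Ppp1r3b, at -0.22 ± 0.09 (adjusted p = 0.0422), lost its call in 17 of 27 alternatives, the replicate block among them (adjusted p = 0.0692). In the AMP-activated kinase branch 11 of 15 were higher and 3 lower, with the sestrins in both directions. Sesn3 was higher by 1.92 ± 0.29 (adjusted p = 2.54e-05), with 3 of 9 cytoplasm arrays well above background, and Sesn2 lower by 1.58 (difference -1.58 ± 0.11, adjusted p = 1.09e-08).

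**Figure D5:**
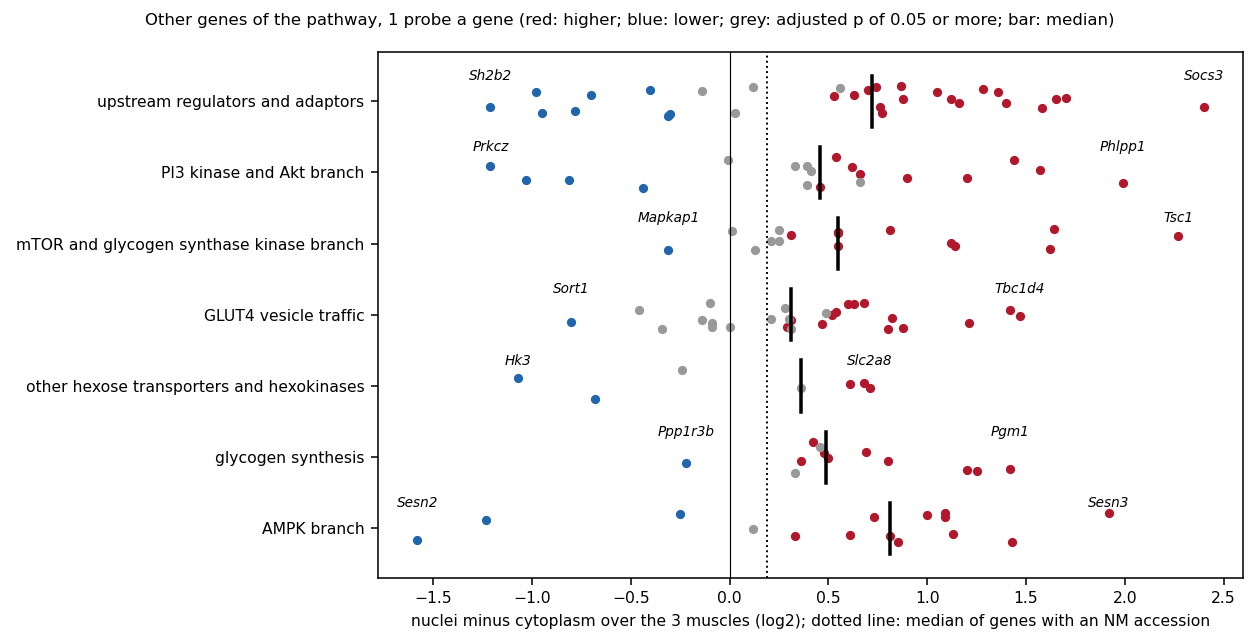
Nuclei minus cytoplasm over the 3 muscles (log2) for the 126 tested genes of the 7 lists, 1 point a gene. Red genes were higher and blue lower in nuclei, grey ones did not pass the test, and bars are list medians. All 7 medians, between 0.31 and 0.81, lie above the dotted line at 0.19, the median of genes with a curated messenger RNA accession.

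Genes with the pattern most like a member were sought over the 18 arrays, among 12817 lead probes with a value on all arrays. Arrays share fraction, muscle and slide, so these values describe likeness only. For Slc2a4 they were Zfand5 (Pearson's r = 0.958), Myadml2 (r = 0.949) and Pdzd9 (r = 0.944). For Insr it was Gstk1 (r = 0.97), for Igf1r Fam117b (r = 0.972), for Irs1 Trit1 (r = 0.982) and for Irs2 Gatsl2 (r = 0.922). For Akt2 it was Ankrd24 (r = 0.938), for Hk2 Mtus1 (r = 0.962), for Gys1 Fam105b (r = 0.922) and for Tbc1d1 Tpi1 (r = 0.901), a glycolytic enzyme. For the variant probe of Igf1 it was Vmn1r203 (r = 0.966). Among the members themselves the pattern of Hk2 was most like that of Gys1 (r = 0.878), and Igf1r and the variant probe of Igf1 were the most opposed (r = -0.772).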

How the data were processed

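Fiber RNA was hybridised to 18 one-colour Agilent arrays, 3 for each of 6 combinations of muscle and fraction given by the labels. The authors deposited scanner files with a processed intensity per spot, made per the file headers with Feature Extraction 10.7.3.1, which subtracts background, on an mm9 design. No scaling between arrays had been applied. The table of values deposited beside them holds none of the member probes and was not used. The number of arrays limits the precision, and between 58.6% and 71.2% of spots were well above background.

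Intensity was taken to log2, spots not positive and significant and outlier spots were set to missing, arrays were quantile-normalized and spots of a probe averaged. Group means were fitted with limma 3.58.1 (lmFit, eBayes) in R 4.3.3, with data.table version 1.17.8, on all probes, with Benjamini-Hochberg adjustment over the probes tested in that comparison and a threshold of 0.05. All tests were 2-sided. A probe needed values on 2 of 3 arrays in each group involved. The A_52_P494514 probe has 1 missing value in TA cytoplasm. Errors are standard errors of the fit. The model was tested on simulated data. Figures used matplotlib 3.10.9 in Python 3.11.15.

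The members and lists were chosen with earlier results of these data known. All probes of a member were reported, the lead probe of a gene being that with the highest mean over the arrays. From each list the gene with the largest called difference in each direction, well above background on at least 1 array of each fraction, was named. The array files give transcript and genome positions, whereas exon and UTR borders were not used here. No 30 bases of a member probe occur in a probe of another gene. Same-numbered EDL and soleus arrays share mice by the labels, yet their deviations from group means correlated at -0.11 to 0.10, against -0.13 to 0.19 for other pairs.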

Additional observations from a re-analysis of the deposited data

Results flagged for a closer look

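The fraction difference of Sesn2, an inducible sestrin of the AMP-activated kinase branch, was unequal between muscles by the moderated F test (adjusted p = 0.0486). Nuclei minus cytoplasm (log2) was largest in size for EDL at -2.33, against -1.29 for soleus and -1.12 for TA.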

How the results depend on the processing

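Each comparison was repeated under the alternatives that could be fitted for it, among them leaving out each of the 18 arrays. Counts below are of the 22 member probes that passed. Apart from Significance Analysis of Microarrays, shares of all probes under an alternative were taken over the 3 muscles only. The counts for single comparisons therefore stand without such a share. Without scaling between arrays the counts were 15 in EDL, 20 in soleus, 1 for soleus minus EDL in cytoplasm, 11 for TA minus EDL and 20 for TA minus soleus in nuclei, and 3 for the test between muscles. In that setting the sign turned for Irs2 (0.77) and Akt2 A_55_P2066523 (0.03) over the 3 muscles, for Igf1 A_55_P2085979 (0.96) and Gys1 A_55_P2026315 (1.08) in soleus, and for Mapkap1 (0.06). With normexp they were 8 in soleus, 3 for soleus minus EDL in cytoplasm, 5 for TA minus EDL in nuclei and 1 between muscles. With the nuclear arrays averaged they were 8 over the 3 muscles, 1 in EDL, 0 in soleus, 2 in TA, 0 for soleus minus EDL in nuclei, 0 for TA minus EDL in either fraction, 6 for TA minus soleus in cytoplasm and 0 in nuclei, and 42 for the other genes of the route. Between muscles in nuclei that averaging sets 1 value against 1, so its counts there decide little. With TA cytoplasm 1 and 2, which share a mouse, averaged the counts were 9 in soleus, 2 for soleus minus EDL in cytoplasm and 5 for TA minus EDL in nuclei. Array weights gave 15 in EDL, 10 in soleus, 1 and 14 for soleus minus EDL in cytoplasm and nuclei, 16 for TA minus EDL and 20 for TA minus soleus in nuclei, and 5 between muscles. Significance Analysis of Microarrays gave 2 in TA. The slide block gave 2 for soleus minus EDL, 2 for TA minus EDL and 10 for TA minus soleus, all in cytoplasm, and turned the sign of Akt2 A_55_P2066523 in TA minus soleus (0.92). It gave no value where fractions or muscles share no slide. The replicate block for shared mice moved soleus minus EDL in nuclei to 1. It also brought the call of Igf1 A_55_P2031636 in soleus (adjusted p = 0.0438), and beside the losses of Tbc1d1, Irs1, Slc2a4 and Ppp1r3b given above it changed no other call of a member or of a pathway gene named here. Among all the other genes of the route it left 92 calls, 74 higher and 18 lower.

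Leaving out 1 array gave 17 to 19 calls over the 3 muscles, 9 to 11 in EDL, 2 to 8 in soleus and 11 to 16 in TA. Between soleus and EDL it gave 0 to 3 in cytoplasm and 1 to 3 in nuclei, between TA and EDL 3 to 11 and 1 to 8, between TA and soleus 13 to 18 and 8 to 15. It gave 0 to 1 for the test between muscles, the 1 without TA cytoplasm 3, and 85 to 98 for the other genes. Scaling to the 75th percentile, keeping values not positive and significant, and leaving out dim probes moved no count by over 1.5 times. Of all probes called over the 3 muscles 44.8% were higher in nuclei. That share was 35.9% with the 75th percentile, 70.1% without scaling and 36.1% with the nuclear arrays averaged. The causes were not tested. The value table deposited by the authors was not run. The cytoplasm arrays, with a median SD of 0.26 to 0.40 and dim signal for Igf1r and Insr A_52_P494514, limit the precision.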
